A study of Mus musculus with 7 samples.

Results

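Collagen hydroxylases and folding helpers are 10 genes whose proteins modify and fold collagen chains before the cell secretes them: P4ha1, P4ha2, P4ha3, P4hb, Plod1, Plod2, Plod3, Serpinh1, Fkbp10 and Fkbp9. They were chosen by name for what their proteins do and were looked up by Ensembl identifier, and all 10 were found among the 56980 genes of the deposited table. Total RNA was sequenced from the myocardium of 7 mice, in a study of angiogenesis genes after myocardial infarction (MI). All were wild-type male C57BL/6J mice obtained at 8 weeks of age. The MI mice were the 3 whose left coronary artery was tied off (ligation). The sham-operated mice were the 4 whose surgery was otherwise the same but left that artery open. Tissue was taken 4 days after ligation, each mouse giving 1 library. The study calls the tissue of the MI mice ischemic, and the sources used here give neither the region cut nor the share of infarcted muscle in each sample.

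Collagen chains are made in the endoplasmic reticulum, where prolyl 4-hydroxylase turns prolines into 4-hydroxyproline, the residue that keeps the triple helix stable at body temperature. Lysyl hydroxylases add hydroxyl groups to lysines, which later carry sugars and set the kind of crosslink between fibrils. Chaperones such as HSP47 then hold the folded helix until it is exported. After an infarct, fibroblasts of the heart turn to making collagen for the scar, and these helpers are known to be needed for it.

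Levels were given as FPKM, the fragments counted on a gene relative to its length and to the size of the library. Depth was 19977713 to 23610870 fragments a mouse. Of the 11431 genes expressed widely enough to be tested, 2040 were higher and 549 lower in the MI mice at an unadjusted p under 0.05 and a log2 fold change over 0.5, the lines drawn in the study's volcano plot. The median gene was 0.21 higher on the log2 scale, and with the mice scaled to equal medians the split became 1073 higher and 1160 lower. The library labelled MI replicate 2 stood apart from the other MI mice: Pearson's r (across genes, so not over independent replicates) with the sham-operated mice was 0.984 to 0.987 for its log2 levels, 0.903 to 0.906 for those of MI replicate 3 and 0.878 to 0.881 for those of MI replicate 1. Mitochondrial genes held 26.5% to 27.4% of the fragments in the sham-operated mice, 28.2% in MI replicate 2, and 13.6% and 14.9% in MI replicates 1 and 3. Results are therefore given with and without MI replicate 2. That library was singled out by its own levels, so leaving it out favours a difference between the groups. P-values without it are descriptive only. Nothing says that samples of a group came from separate litters or days, and p-values measure the spread between these mice.

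All 10 genes were higher in MI replicates 1 and 3 than in every sham-operated mouse, and 8 of the 10 lay within the sham range in MI replicate 2. Over all genes tested, MI replicates 1 and 3 were above every sham-operated mouse for 61.9%, MI replicate 2 was within the sham range for 49.4%, and both held for 31.2%. The exceptions were P4ha3, which was above the sham range in MI replicate 2, and Serpinh1, which was just below it. P4ha3 was expressed at 1 FPKM or more in only MI replicates 1 and 3 and was left out of the test, which leaves 9 genes. Of these 9, 7 passed the lines of the volcano plot as higher in the MI mice, against 17.8% of all genes tested, and the other two were Plod1 and P4ha2. The count of 7 stood between 6 and 9 under the other scalings, but fell to 0 without MI replicate 1 or without MI replicate 3 and to 4 without sham replicate 1. At an adjusted p under 0.05 none of the 9 was called (limma with Benjamini-Hochberg adjustment), where 0.0262% of all genes were, and 7 had an unadjusted p under 0.05, as did 39.3% of all genes. The median log2 fold change of the 9 was 0.95, beside 0.21 over all genes tested. In none of the 9 did every MI mouse lie above every sham-operated mouse, a pattern found in 16.1% of all genes. Without MI replicate 2, all 9 were called as higher, as were 57.0% of all genes tested, so a call in that comparison was the usual outcome for a gene.

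**Figure D1:**
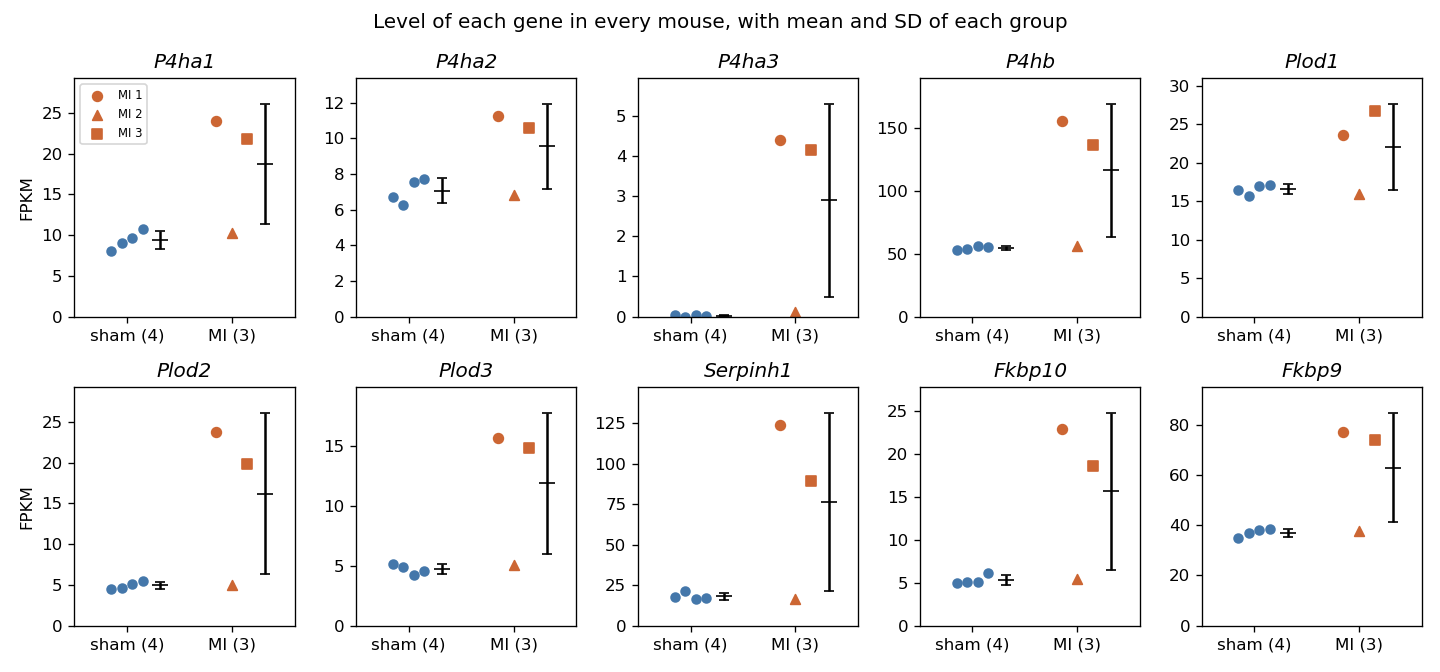
FPKM (vertical axis) of the 10 genes in each of the 4 sham-operated mice (blue) and the 3 MI mice (orange, 1 marker shape per mouse), with the mean and SD of each group in black. MI replicates 1 and 3 lie above all sham-operated mice in each panel, and MI replicate 2 lies near the sham mice.

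The 3 genes of the catalytic alpha subunit of prolyl 4-hydroxylase had fold changes of different size, which were not tested against each other. P4ha1 (chr10:59323296-59373304, plus strand, GRCm38), the main alpha subunit of most cells, stood at 8.07, 9.02, 9.61 and 10.8 FPKM in sham replicates 1 to 4 and at 24.0, 10.3 and 21.8 in MI replicates 1, 2 and 3. MI replicates 1 and 3 were 2.57-fold and 2.33-fold above the sham mean of 9.37 ± 1.13 (SD, n = 4), and MI replicate 2 was inside the sham range. Its log2 fold change was 0.85 ± 0.27 (SE), or 0.64 above the median gene (adjusted p = 0.108, limma). Without MI replicate 2 it was 1.21 ± 0.11 (adjusted p = 7.93e-05, limma). In bulk tissue a change in the number of cells that express a gene and a change in its RNA per cell cannot be told apart, which holds for every gene described here.

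P4ha2 (chr11:54100095-54131665, plus strand), the second alpha subunit, stood at 6.72, 6.24, 7.57 and 7.71 FPKM in the sham-operated mice and at 11.2, 6.83 and 10.6 in MI replicates 1, 2 and 3. The highest MI mouse was only 1.59-fold above the sham mean of 7.06 ± 0.703 FPKM (SD, n = 4), and MI replicate 2 was again within the sham range. For P4ha2 the log2 fold change was 0.37 with a 95% interval from -0.03 to 0.77, which includes 0 (adjusted p = 0.145, limma). Set against the median gene the difference came to 0.16, and it was 0.11 with quantile normalization and 0.58 with TPM. With MI replicate 2 left out the log2 fold change was 0.57 ± 0.09 (adjusted p = 0.00116, limma).

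P4ha3 (chr7:100285520-100319699, plus strand), the least abundant alpha subunit in most tissues, was close to absent in sham hearts. The recovered fragments numbered 3, 0, 4 and 1 in sham replicates 1 to 4, and 474, 14 and 486 in MI replicates 1 to 3. In FPKM these were at most 0.0344 in the sham-operated mice, and 4.39, 0.125 and 4.15 in the MI mice. The 0 of sham replicate 2 allows a level of up to 0.0279 FPKM, taking 3 fragments as the limit. All MI mice lay above all sham-operated mice, and MI replicate 2, with 14 fragments, was nearer to the sham mice than to the other MI mice. Over the summed fragments, 8 in the sham-operated and 974 in the MI mice, the rate was 157-fold higher in the MI mice, with a 95% exact interval of 79.2 to 364 that covers counting error only. MI replicate 2 alone stood at 6.77-fold (2.65 to 18.6) over the summed sham libraries. The exact two-sided permutation test on FPKM gave p = 0.0571, the smallest that 3 mice against 4 can give. With no filter on low values the log2 fold change of P4ha3 was 1.63 (adjusted p = 0.188, limma), on a scale that adds 1 to each FPKM and so understates the change of a gene this low.

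The promoters of the 3 alpha subunit genes and of Serpinh1 are shown because these genes span small and large differences between the groups. Each window holds 250 bases before and 50 bases after the RefSeq start of transcription (GRCm38.p6), written 5′ to 3′ on the strand of the gene. Capitals mark ACGTG or GCGTG on either strand (CACGT or CACGC on the printed strand), the core letters of the site bound by hypoxia-inducible factors. The P4ha1 window lies at chr10:59323046-59323345 (plus strand), that of P4ha2 at chr11:54100674-54100973 (plus), that of P4ha3 at chr7:100285270-100285569 (plus) and that of Serpinh1 at chr7:99353190-99353489 (minus).
P4ha1: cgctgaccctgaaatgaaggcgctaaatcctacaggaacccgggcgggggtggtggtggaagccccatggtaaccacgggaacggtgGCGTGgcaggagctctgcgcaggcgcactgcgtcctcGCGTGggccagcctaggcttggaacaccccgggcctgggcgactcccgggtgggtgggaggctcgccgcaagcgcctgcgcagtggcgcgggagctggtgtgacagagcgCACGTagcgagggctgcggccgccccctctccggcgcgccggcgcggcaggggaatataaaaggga
P4ha2: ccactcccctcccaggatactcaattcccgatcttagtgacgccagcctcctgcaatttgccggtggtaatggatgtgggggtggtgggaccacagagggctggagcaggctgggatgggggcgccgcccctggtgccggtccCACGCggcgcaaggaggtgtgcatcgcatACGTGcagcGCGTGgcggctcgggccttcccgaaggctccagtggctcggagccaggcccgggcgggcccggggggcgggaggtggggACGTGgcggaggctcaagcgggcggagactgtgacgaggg
P4ha3: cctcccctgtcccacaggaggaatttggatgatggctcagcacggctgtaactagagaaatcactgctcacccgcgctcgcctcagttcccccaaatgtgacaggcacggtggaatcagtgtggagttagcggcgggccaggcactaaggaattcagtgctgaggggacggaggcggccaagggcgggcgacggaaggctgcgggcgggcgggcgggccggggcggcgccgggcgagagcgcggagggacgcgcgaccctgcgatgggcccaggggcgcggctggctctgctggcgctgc
Serpinh1: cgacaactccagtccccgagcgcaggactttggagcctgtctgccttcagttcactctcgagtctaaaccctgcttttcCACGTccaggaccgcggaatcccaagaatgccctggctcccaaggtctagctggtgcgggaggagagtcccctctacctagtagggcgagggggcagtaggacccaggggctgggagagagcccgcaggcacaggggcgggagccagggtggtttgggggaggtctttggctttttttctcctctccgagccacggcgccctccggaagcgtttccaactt

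P4ha1 held 1 ACGTG and 2 GCGTG matches, P4ha2 held 2 of each, Serpinh1 held 1 ACGTG, and P4ha3 held neither. The ACGTG of P4ha1 began 16 bases before the start and that of Serpinh1 began 171 bases before it. P4ha3 had 5 copies of GGGCGG, the GC box letters, beginning between 69 and 30 bases before the start, of which those at 48, 44 and 40 bases before it overlap. The same letters occurred 4 times in P4ha2, 2 times in P4ha1 and 1 time in Serpinh1. A RefSeq window was given for 8 of the 10 genes, all but Plod2 and Fkbp10. One or the other core was in 7 of these 8 windows, in 43.8% of all 32851 windows and in 62.8% of the 9879 windows of genes tested here. For GGGCGG it was 7 of 8, against 35.7% of all windows and 64.1% of those of tested genes. CCAAT was in 2 of 8, P4hb and Plod3, against 37.4% of all windows. Matches were sought on both strands, and those of different motifs may overlap. They describe letters, not sites in use.

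P4hb (chr11:120560298-120573253, minus strand) encodes protein disulfide isomerase, which is both the partner subunit of all 3 alpha subunits and a general folding enzyme. It was the most abundant of the 10 genes in every mouse. Its level was 52.6, 53.4, 56.4 and 55.1 FPKM in the sham-operated mice, a narrow spread, and 156, 56.0 and 137 in MI replicates 1, 2 and 3. MI replicates 1 and 3 were 2.86-fold and 2.51-fold over the sham mean of 54.4 ± 1.72 (SD, n = 4), while MI replicate 2 fell within the sham range. The log2 fold change of P4hb was 0.95 ± 0.33, or 0.74 above the median gene (adjusted p = 0.108, limma), and 1.41 ± 0.07 without MI replicate 2 (adjusted p = 8.71e-06, limma).

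In MI replicates 1 and 3 the P4ha3 share of the alpha subunits was higher and the P4ha2 share lower than in the sham-operated mice. No share passed its test at 0.05, which these group sizes do not allow. P4ha3 took 0.182%, 0%, 0.2% and 0.0546% of the summed alpha subunit FPKM in sham replicates 1 to 4, and 11.1%, 0.724% and 11.4% in MI replicates 1 to 3. P4ha2 took 40.9% to 45.3% of it in the sham-operated mice, and 28.3%, 39.7% and 29.0% in the MI mice. P4ha1 kept the largest share in all mice, 54.5% to 59.1% in the sham-operated and 59.6% to 60.6% in the MI mice. For all 3 shares the groups did not overlap (exact two-sided permutation p = 0.0571 for each, the smallest possible, and 0.114 adjusted over the 8 shares and ratios compared). The P4ha2 share of MI replicate 2, 39.7%, lay just below the lowest sham mouse at 40.9%, a gap smaller than the sham range. For P4ha1 that mouse, at 59.6%, lay just above the highest sham mouse at 59.1%, also a gap smaller than the sham range. The summed alpha subunits relative to P4hb did not separate the groups: the log2 ratio was -1.73 ± 0.11 in the sham-operated (SD, n = 4) and -1.86 ± 0.14 in the MI mice (SD, n = 3), with an exact permutation p of 0.286.

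**Figure D2:**
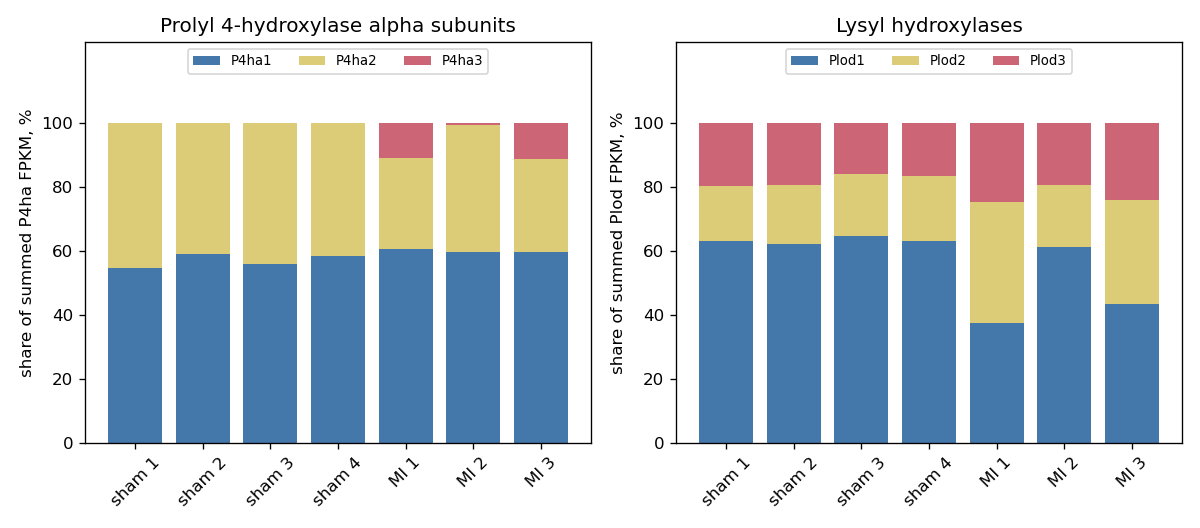
Share (%) of each gene in the summed FPKM of its family in each mouse, for the 3 prolyl 4-hydroxylase alpha subunits (left) and the 3 lysyl hydroxylases (right). P4ha3 is visible as a block of 11.1% and 11.4% in MI replicates 1 and 3, where Plod1 drops to 37.4% and 43.5%, and the bar of MI replicate 2 is close to the sham bars.

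The fold changes of the lysyl hydroxylases were also of different size, and were not tested against each other. Plod2 (chr9:92542223-92608428, plus strand) encodes LH2, which acts on the lysines of the collagen ends and so favours the stable crosslinks found in scars. It stood at 4.52, 4.67, 5.07 and 5.46 FPKM in the sham-operated mice and at 23.8, 5.00 and 19.8 in MI replicates 1, 2 and 3. That was 4.83-fold and 4.02-fold over the sham mean of 4.93 ± 0.423 (SD, n = 4) in MI replicates 1 and 3 and 1.01-fold in MI replicate 2. Its log2 fold change was 1.30 ± 0.45, or 1.09 above the median gene (adjusted p = 0.109, limma), and 1.94 ± 0.10 without MI replicate 2 (adjusted p = 8.78e-06, limma). The exons of Plod2 share 346 bases with Gm38391, an annotated transcript still to be checked experimentally, on the opposite strand.

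Plod3 (chr5:136987019-136996648, plus strand) encodes LH3, which can also add sugars to the hydroxylysines it makes. Its values were 5.16, 4.91, 4.26 and 4.52 FPKM in the sham-operated mice and 15.7, 5.08 and 14.9 in MI replicates 1, 2 and 3. The high MI mice were more than 3-fold over the sham mean, at 3.33-fold and 3.16-fold, and MI replicate 2 was within the sham range. For Plod3 the log2 fold change was 1.04 ± 0.34, or 0.83 above the median gene (adjusted p = 0.108, limma) and 1.51 ± 0.08 without MI replicate 2 (adjusted p = 9.98e-06, limma). The exons of Plod3 share 529 bases with Znhit1 on the opposite strand, and whether counting used the strand is not known, so reads from these bases cannot be told apart.

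Plod1 (chr4:147909753-147936767, minus strand) encodes LH1, which acts on lysines within the helix. It was the leading lysyl hydroxylase of sham hearts, at 16.5, 15.7, 16.9 and 17.1 FPKM, and stood at 23.6, 15.9 and 26.7 in MI replicates 1, 2 and 3. It was the only one of the 10 genes that was higher in MI replicate 3 than in MI replicate 1. Its log2 fold change was 0.36 with a 95% interval from -0.03 to 0.76 (adjusted p = 0.145, limma), which is 0.15 above the median gene. Without MI replicate 2 it was 0.57 ± 0.07 (adjusted p = 0.000351, limma), and without MI replicate 3 it was 0.21 ± 0.17 (adjusted p = 0.413, limma). The difference of Plod1 also moved with the scaling, from 0.10 with median log-ratio scaling to 0.57 with TPM.

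As a share of the summed lysyl hydroxylase FPKM, Plod1 went from 62.1% to 64.5% in the sham-operated mice to 37.4%, 61.1% and 43.5% in MI replicates 1 to 3. Plod2 took 17.3% to 20.1% in the sham-operated mice, and 37.8%, 19.3% and 32.3% in the MI mice. In MI replicate 1 Plod1 and Plod2 were thus present at nearly equal levels. The Plod1 share did not overlap between the groups (exact permutation p = 0.0571, adjusted 0.114), while that of Plod2 did, through MI replicate 2 (exact permutation p = 0.171, adjusted 0.196). But the Plod1 share of MI replicate 2, 61.1%, lay just below the lowest sham mouse at 62.1%, a gap smaller than the sham range. Plod3 took 16.2% to 19.7% in the sham-operated and 24.9%, 19.6% and 24.3% in the MI mice (exact permutation p = 0.114, adjusted 0.152).

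Serpinh1 (chr7:99345376-99353239, minus strand) encodes HSP47, the chaperone that binds collagen only. It showed the largest difference of the 9 genes tested, with the 189th largest log2 fold change among the 11431 genes. It stood at 17.7, 21.2, 16.5 and 16.8 FPKM in the sham-operated mice and at 124, 16.3 and 89.1 in MI replicates 1, 2 and 3. MI replicates 1 and 3 were 6.88-fold and 4.94-fold over the sham mean of 18.0 ± 2.20 FPKM (SD, n = 4), and MI replicate 2 was the lowest of all 7 mice. The log2 fold change of Serpinh1 was 1.61 ± 0.62, or 1.40 above the median gene, with a 95% interval from 0.16 to 3.06 (adjusted p = 0.114, limma). Leaving out MI replicate 2 gave 2.49 ± 0.15 (adjusted p = 1.86e-05, limma), and leaving out MI replicate 1 gave 1.06 ± 0.59 (adjusted p = 0.346, limma). Serpinh1 passed from similar levels with Plod1 in sham hearts to the second place behind P4hb in MI replicates 1 and 3.

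Fkbp10 (chr11:100415697-100424824, plus strand) encodes FKBP65, a prolyl isomerase that helps collagen fold and works with LH2. Its levels were 4.93, 5.06, 5.09 and 6.13 FPKM in the sham-operated mice and 23.0, 5.42 and 18.6 in MI replicates 1, 2 and 3. The high MI mice were 4.33-fold and 3.51-fold over the sham mean of 5.30 ± 0.555 (SD, n = 4), close to the folds of Plod2, and MI replicate 2 was within the sham range. The log2 fold change of Fkbp10 was 1.20 ± 0.42, or 0.99 above the median gene (adjusted p = 0.109, limma), and 1.79 ± 0.11 without MI replicate 2 (adjusted p = 1.87e-05, limma). Its exons share 193 bases with Nt5c3b on the opposite strand.

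Fkbp9 (chr6:56832059-56879358, plus strand), a related prolyl isomerase of the endoplasmic reticulum, was far more abundant in sham hearts and differed less. It stood at 34.9, 36.7, 38.1 and 38.4 FPKM in the sham-operated mice and at 77.0, 37.8 and 73.9 in MI replicates 1, 2 and 3. MI replicates 1 and 3 were 2.08-fold and 2.00-fold over the sham mean. The log2 fold change of Fkbp9 was 0.68 ± 0.24, or 0.47 above the median gene (adjusted p = 0.109, limma), and 1.01 ± 0.06 without MI replicate 2 (adjusted p = 1.85e-05, limma). With median log-ratio scaling it was 0.41, so that Fkbp9 no longer passed the lines. The log2 ratio of Fkbp10 over Fkbp9 lay between -2.90 and -2.65 in the sham-operated mice and at -1.75, -2.80 and -1.99 in MI replicates 1 to 3, so that Fkbp10 gained on Fkbp9 in MI replicates 1 and 3 and not in MI replicate 2 (exact permutation p = 0.114, adjusted 0.152).

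**Figure D3:**
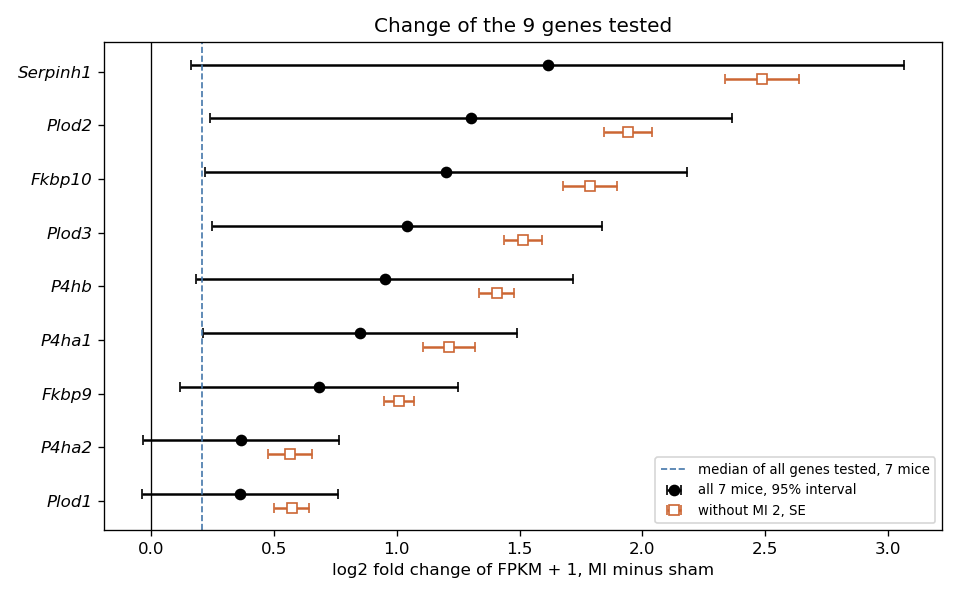
Log2 fold change of FPKM + 1 (horizontal axis, MI minus sham) of the 9 genes tested, with all 7 mice (black, 95% interval) and without MI replicate 2 (orange, SE). Serpinh1 stands highest at 1.61 and 2.49, Plod1 and P4ha2 lowest, and the dashed line marks the median gene at 0.21.

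Across the 10 genes the order of levels in sham hearts was P4hb, Fkbp9, Serpinh1, Plod1, P4ha1, P4ha2, Fkbp10, Plod2, Plod3 and P4ha3. The ranges of Serpinh1 and Plod1 overlapped there, as did those of Fkbp10 with Plod2 and of Plod2 with Plod3. In MI replicates 1 and 3 the order was P4hb, Serpinh1, Fkbp9, Plod1, P4ha1, Plod2, Fkbp10, Plod3, P4ha2 and P4ha3. Between Plod1, P4ha1, Plod2 and Fkbp10 neighbouring ranges overlapped in these 2 mice, at means from 20.8 to 25.1 FPKM. Plod2, Fkbp10 and Plod3, the lowest genes of sham hearts after P4ha3, had thereby all passed P4ha2.

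The 3 main fibrillar collagen genes, the substrates, had log2 fold changes above those of all 9 helpers tested. Col1a1, the main chain of type I collagen, stood at 17.1 to 23.0 FPKM in the sham-operated mice and at 768, 40.5 and 569 in MI replicates 1, 2 and 3 (log2 fold change 3.69 ± 0.93, adjusted p = 0.108, limma). The log2 fold changes of Col1a2, the partner chain, and of Col3a1, the chain of type III collagen, were 3.29 and 3.37. The mean log2 level of these 3 collagen genes was 4.08 to 4.47 in the sham-operated mice, and 9.15, 5.26 and 8.70 in MI replicates 1 to 3. MI replicate 2 was thus above every sham mouse for this collagen mean, though within the sham range for most of the helpers. Not all collagen genes shared this: in that mouse Col5a1 lay within the sham range and Col4a1 below it.

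Relative to that mean, all 10 genes were lower in every MI mouse than in every sham-operated mouse. The same held for 98.4% of all genes tested, since the reference was 3.45 higher in the MI mice, and the count says nothing particular about the helpers. The size of the difference varied from -1.82 for P4ha3 and -1.84 for Serpinh1 to -3.09 for P4ha2 and Plod1 on the log2 scale, beside a median of -3.24 over all genes tested. Each of the 10 exact permutation tests gave the smallest possible p of 0.0571. Serpinh1 was about level with the collagen mean in sham hearts, at -0.25 to 0.21, and stood at -2.19, -1.15 and -2.21 in MI replicates 1 to 3. P4hb was above it in sham hearts, at 1.27 to 1.74, and at -1.86, 0.57 and -1.60 in the MI mice. When the mean of 5 fibroblast markers (Pdgfra, Dcn, Lum, Dpt and Ddr2) replaced the collagens, the differences ran from -1.06 to 0.21, with Serpinh1 at 0.19 and P4ha3 at 0.21 now on the higher side. That sign rested on the choice of markers: with all 8 tested fibroblast markers other than Col1a1, a reference added after seeing the data, the differences ran from -1.51 to -0.24, with Serpinh1 at -0.26 and P4ha3 at -0.24. For P4ha3 the sign also turned with a pseudocount of 0.1, to 0.28.

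**Figure D4:**
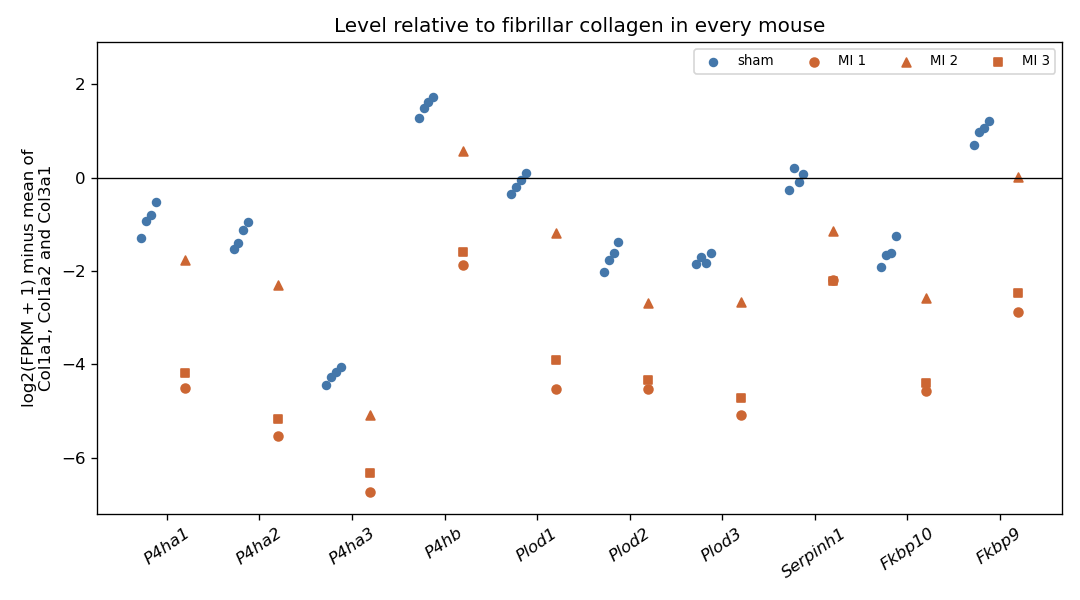
Log2(FPKM + 1) of each gene minus the mean of Col1a1, Col1a2 and Col3a1 (vertical axis) in the 4 sham-operated mice (blue) and the 3 MI mice (orange, by mouse). All MI mice lie below all sham-operated mice for each gene, with MI replicate 2 nearest to them, a pattern shared by 98.4% of all genes tested.

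The other genes that modify or fold collagen were listed by role, and counts are given for the genes of each list that were tested. They stand beside the 17.8% of all genes past the lines as higher, and in none of these lists was a gene called after adjustment (limma). Of 13 tested genes in the list of further collagen-modifying and folding genes, 9 passed the lines as higher and 0 as lower, with a median log2 fold change of 1.03, close to the 0.95 of the genes above. Sparc, a secreted collagen-binding protein, led the list at 2.14 ± 0.68, followed by P3h3, a prolyl 3-hydroxylase, at 1.39 ± 0.55 and Creb3l1, a transcription factor that switches on collagen genes, at 1.33 ± 0.47. Colgalt2, which adds galactose to hydroxylysine, and Tmem38b, an ion channel of the endoplasmic reticulum, differed least, at -0.08 and 0.08. Crtap and Ppib, the partners of prolyl 3-hydroxylase P3h1, were chosen after their values were seen: the log2 fold changes of the 3 genes were 1.23, 1.16 and 1.03.

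General chaperones of the endoplasmic reticulum, which fold many secreted proteins, had 12 of 15 tested past the lines as higher and 0 as lower, with a median of 0.77. Their summed level was 323 to 361 FPKM in the sham-operated mice, and 747, 327 and 619 in MI replicates 1, 2 and 3, so that the sum of MI replicate 2 was within the sham range. By gene, 6 of the 15 had every MI mouse above every sham-operated mouse, as did 16.1% of all genes tested. Sdf2l1, Pdia4 and Creld2, which assist folding or disulfide bonds, stood highest at 1.33, 1.31 and 1.30, while Canx (calnexin) stood at 0.05 and Dnajb9 at 0.23. Hspa5 (BiP), the central chaperone of the unfolded protein response, was named after its values were seen. It was at 60.8 to 66.9 FPKM in the sham-operated mice and at 90.7, 35.9 and 45.8 in MI replicates 1, 2 and 3, and so did not follow the pattern of the 10 genes. MI replicates 1 and 3 lay on opposite sides of the sham range for it.

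Genes of collagen export passed the lines about as often as genes at large. Of the 12 tested, 2 passed the lines as higher and 0 as lower, Sec24d, a coat protein of export vesicles, at 0.63 ± 0.25 and Hsp90b1 (GRP94) at 0.62 ± 0.21, and the median was 0.34. Hsp90b1 is also in the list of general chaperones and was counted in both lists. Pdia3 likewise counts among both the general chaperones and the further modifying genes. Klhl12, which helps to enlarge these vesicles, and Mia2 stood at 0.07 and -0.11. In the same list Sar1a was noticed after its values were seen: its level in sham replicate 4, 8.15 FPKM, was far from the 29.0 to 33.4 FPKM of the other sham-operated mice.

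Other enzymes share the same chemistry. Of 6 related oxygenases that act on proline or asparagine in other proteins, 0 passed the lines in either direction, beside 17.8% of all genes that passed as higher, and the median was -0.19. Without MI replicate 2, limma called 1 of the 6 as higher and 3 as lower after adjustment, where it called 57.0% of all genes as higher and 14.7% as lower. P4htm, a membrane-bound prolyl hydroxylase, and Egln3, one of the oxygen sensors, had log2 fold changes of 0.00 and -0.15. Vitamin C is a cofactor of all these enzymes, and of its 2 tested carriers Slc2a1 (GLUT1, which takes up the oxidised form) was at 0.86 ± 0.27 and past the lines, and Slc23a2 was at 0.32.

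Collagen genes were also listed. Of the 6 fibrillar collagen genes tested, which include the 3 of the reference, 5 passed the lines as higher, with a median of 3.12, and the smallest differences were those of Col5a3 at 1.09 and Col5a1 at 2.17. Of 9 network and other collagens 6 passed as higher, with a median of 1.57. Col8a1, Col14a1 and Col6a1 led these at 2.65, 2.46 and 1.72, and Col4a2 and Col4a1, the chains of basement membranes, stood lowest at 0.86 and 0.95. Without MI replicate 2, the median was 4.35 for the fibrillar genes, 2.18 for the other collagens, 1.49 for the further modifying genes, 1.10 for the general chaperones, 0.52 for export genes, -0.19 for the related oxygenases and 1.41 for the 9 collagen hydroxylases and helpers tested, beside 0.33 over all genes.

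**Figure D5:**
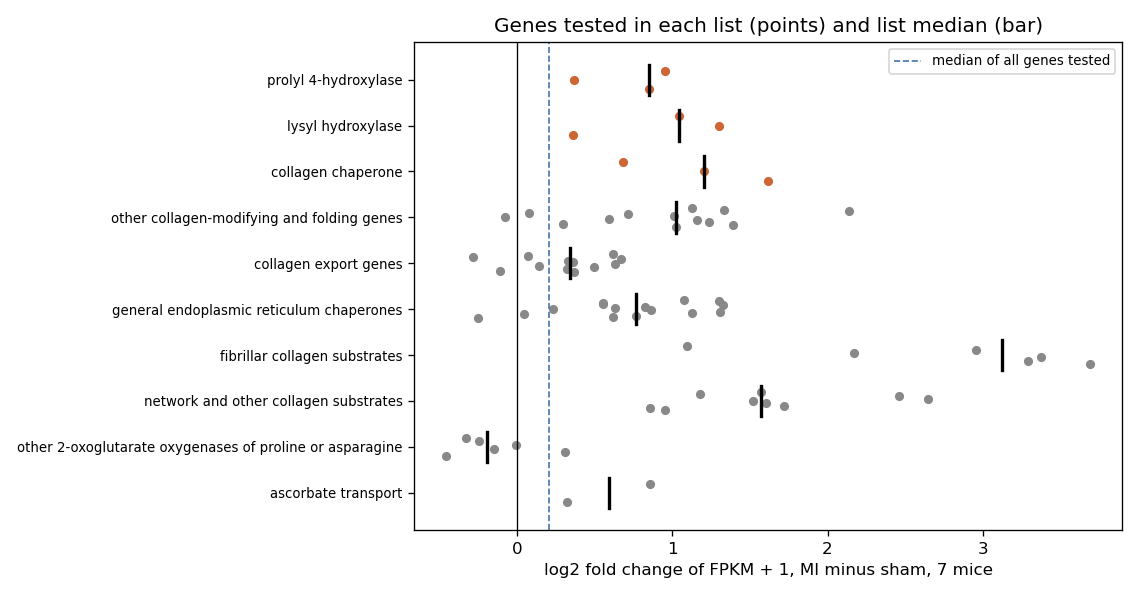
Log2 fold change of FPKM + 1 (horizontal axis, MI minus sham, 7 mice) of each gene tested (points), by list, with the list median as a black bar and the median of all genes tested, 0.21, as a dashed line. Orange points are the 9 genes tested here, whose family medians of 0.85, 1.04 and 1.20 lie well below the 3.12 of fibrillar collagen.

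In MI replicates 1 and 3 the summed markers of fibroblasts and macrophages stood higher than in the sham-operated mice, and those of cardiomyocytes lower. Few endothelial, smooth muscle and pericyte markers passed the lines. The part of any cell type in these results was not tested. Fibroblast markers summed to 129 to 144 FPKM in the sham-operated mice and to 1596, 204 and 1357 in MI replicates 1, 2 and 3, and 9 of 9 tested were past the lines as higher, led by Postn, Col1a1 and Mfap5 at 4.10, 3.69 and 2.48, with Ddr2 and Pdgfra lowest at 0.73 and 1.08. Macrophage markers summed to 199 to 252 FPKM in the sham-operated mice and to 1317, 240 and 1127 FPKM in the MI mice, and 8 of 8 were past the lines, from Mrc1 at 0.85 and Csf1r at 1.03 to Cd68, C1qb and Lyz2 at 1.58, 1.63 and 1.75. Cardiomyocyte markers were abundant in every mouse. They summed to 14199 to 15266 FPKM in the sham-operated and to 9315, 14257 and 9824 FPKM in the MI mice, and 5 of 10 were past the lines as lower, where 4.80% of all genes tested were, with Tnni3, Atp2a2 and Myl2 at -0.93, -0.81 and -0.75 and Actc1 and Actn2 at -0.19 and -0.20. Endothelial markers had 1 of 8 past the lines, Vwf at 0.74, with Cdh5 at 0.06 and Tek at 0.17, and sums of 137 to 155 FPKM in the sham-operated and 174, 130 and 188 FPKM in the MI mice. Of 7 tested smooth muscle and pericyte markers 2 were past the lines, Tagln at 1.63 and Pdgfrb at 0.61, with Rgs5 at -0.03 and Myh11 at 0.16, and the sums were 221 to 262 FPKM in the sham-operated and 352, 224 and 390 FPKM in the MI mice. No marker was listed at 0 in every mouse.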

How the data were processed

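Total RNA of myocardial tissue from 7 mice was sequenced, and groups were taken from the sample labels. Per the labels, CASAVA 1.8, HISAT2, SAMtools 1.3.1 and edgeR were used on build mm10, with no role given for each. The annotation, the counting program and whether counting used the strand were not given in the sources used here. The authors deposited FPKM values for 56980 genes, and 0 columns of values were left unused. Of the identifiers, 52073 matched GENCODE M21 (GRCm38), from which symbols and positions came.

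The fragments behind each value were recovered by finding the gene length, between 20 and 120000 bases, that brought all mice within 0.02 of whole numbers. This gave fragments for 30502 of 30504 expressed genes, and depths of 19977713 to 23610870 fragments a mouse. It served only for depth, fragment numbers, mitochondrial shares, the rates and the limit given for P4ha3, and a voom alternative. The lengths so implied were longer than the exon lengths in GENCODE M21 for all 10 genes, for example 7436 against 2443 bases for Serpinh1, so levels are compared between genes only as the authors scaled them.

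Genes were tested where 3 or more mice reached 1 FPKM, which left 11431. The test was limma 3.58.1 (R 4.3.3, moderated with an intensity trend) on log2(FPKM + 1), comparing the groups with no covariate. P-values were adjusted over all of these genes by the Benjamini-Hochberg method at 0.05. An unadjusted p of 0.05 with an absolute log2 fold change of 0.5, the lines of the study's volcano plot, was the second criterion. Shares, ratios and differences from collagen were compared with exact two-sided permutation tests over the 35 splits of the mice. The fit was tested on simulated data with known changes, in which both groups had the spread of the sham-operated mice. The genes above spread more in the MI mice, so that test cannot show how the fit behaves on these data. SciPy 1.17.1 in Python 3.11.15 was used for the rest.

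The 10 genes, the other gene lists and the tests were chosen with earlier results of these data known. Of each other list, up to 3 genes with the largest change past the lines and up to 2 with the smallest change are named, and other genes named were chosen after their values were seen. The alternatives were another pseudocount, no filter, a filter on the mean, TPM, median log-ratio and quantile scaling, no trend, sample weights, a replicate block, voom on the recovered fragments, fibroblast markers in place of the collagens, and each mouse left out. Counts of non-overlapping genes under other scalings and with mice left out, list counts without MI replicate 2, and a reference of all tested fibroblast markers but Col1a1, were added after seeing the data.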

Additional observations from a re-analysis of the deposited data

Results flagged for a closer look

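In the sham-operated mice, the Fkbp10 level of sham replicate 4, 6.13 FPKM, stood apart from the 4.93 to 5.09 FPKM of the other 3. The gap to its neighbour was 0.865 of the whole sham range, above Dixon's 95% critical value for 4 samples. This was the only flag among 28 sets of sham values examined (10 levels, 8 shares and ratios, and 10 differences from collagen), and chance flags about 1 set in 20.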

How the results depend on the processing

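The number of the 9 tested genes called at an adjusted p under 0.05 was 0 as reported and 0 to 9 with each mouse left out, the 9 coming without MI replicate 2. It was also 9 with sample weights, but that fit gave MI replicate 3 a weight of 436.7 against 0.0906 for MI replicate 1 and 0.0217 for MI replicate 2, so it rests on 1 MI mouse and supports nothing. Under all other alternatives it was 0. Past the volcano lines, 7 were higher as reported and 0 to 9 with a mouse left out: 0 without MI replicate 1 or 3, 4 without sham replicate 1 and 9 without MI replicate 2. The number not overlapping between the groups was 0 as reported (16.1% of all genes tested), 2 with median log-ratio scaling (13.7%), 3 with quantile normalization (12.1%), and 0 to 9 with a mouse left out: 1 without sham replicate 1 (19.8%) or 3 (19.9%), 2 without sham replicate 4 (18.8%), and 9 without MI replicate 2 (61.9%). All fold changes of the 9 genes stayed above 0, the lowest being 0.10 for Plod1 with median log-ratio scaling. Relative to fibrillar collagen, P4ha3 turned to 0.28 with a pseudocount of 0.1 and to 0.21 with fibroblast markers as the reference, and Serpinh1 to 0.19 with those markers, but with all 8 tested fibroblast markers other than Col1a1 neither turned. No share or ratio changed its direction with a mouse left out, but some sizes moved by over 1.5 times. The Plod2 share difference went from 10.96 to 6.96 percentage points without MI replicate 1, and the difference in the log2 ratio of Fkbp10 over Fkbp9 from 0.63 to 0.41. For the log2 ratio of the summed alpha subunits over P4hb the difference of -0.13 became -0.07 without MI replicate 1, -0.21 without MI replicate 2 and -0.07 without sham replicate 4. The other shares moved by less, that of P4ha3 between 5.79 and 11.1 percentage points.

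At the adjusted threshold, the counts over all genes were 2 higher and 1 lower as reported, 7636 and 2316 with sample weights, and 6512 and 1683 without MI replicate 2. Past the lines, 2040 were higher and 549 lower as reported, 3741 and 296 with TPM, 3730 and 910 with sample weights, 4006 and 962 without MI replicate 2, 637 and 177 without MI replicate 1, and 640 and 251 without MI replicate 3.

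The replicate numbers share nothing in the labels, and same-numbered mice did not deviate together (correlations of 0.07, -0.02 and -0.08). With the number as a replicate block, 0 genes of the 9 were called and 6 passed the lines.

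With 3 mice against 4 an exact test cannot give a p under 0.0571. At these depths P4ha3 rests on at most 4 fragments in a sham library, so its fold is imprecise, and the interval given covers counting error alone and not the difference between mice.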
